A study of Mus musculus with 22 samples.

Results

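The type I interferon response genes described here are 42 genes that cells induce when they sense type I interferon. They were taken by symbol from the 27179 gene rows of an RNA-seq count table, where all 42 matched, and their levels were read in all 22 libraries. The study asked what the absence of Lama4, the gene of a laminin chain in vessel and marrow matrix, does to bone marrow mesenchymal stem cells (MSC) and to their exchange with acute myeloid leukaemia (AML) cells. KO_MSC (n = 4) and WT_MSC (n = 4) were Lama4-/- and wild type MSC of C57BL/6J mice aged 10 to 14 weeks, expanded in culture from sorted cells. KO_MSC_AML (n = 3) and WT_MSC_AML (n = 5) were such MSC after 48 h with MLL-AF9 AML cells. KO_AML (n = 3) and WT_AML (n = 3) were the AML cells taken from co-culture with KO and with WT MSC, and they carry a wild type genotype label themselves. The AML cells had been made by retroviral transfer of the human MLL-AF9 fusion gene into progenitors from marrow of mice aged 10 to 12 weeks. The labels give neither the number of AML clones nor whether replicates were separate animals or cultures, so p-values measure only the spread between these samples. AML cells cultured alone were not analysed here.

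Type I interferons bind a receptor of the chains IFNAR1 and IFNAR2, and the kinases JAK1 and TYK2 then pass the signal on. A complex that holds STAT2 and IRF9 binds the interferon-stimulated response element (ISRE) and switches on antiviral genes. Many of these genes are also driven by other interferons or by IRF factors alone, and some are transcribed at a basal level in stromal and blood-forming cells without infection.

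Library depth ran from 11201751 to 24826876 counts. Levels are CPM, counts normalised to library size, scaled with TMM factors over all 22 libraries. Lama4 was at 0.357 to 1.03 CPM in KO_MSC and 321 to 347 CPM in WT_MSC, and at 0 to 0.23 CPM in KO_MSC_AML and 201 to 306 CPM in WT_MSC_AML, in accord with the genotype labels. The cell type field of KO_MSC_AML replicate 3 says AML, but its title and its Col1a1 level were those of MSC and it was analysed as such. The summed level of 9 stromal markers was 20540 to 34640 CPM in MSC and 93.1 to 309 CPM in AML libraries. Of these markers Lepr was at 0 in all co-cultured MSC. The summed level of 14 AML and blood cell markers in co-cultured MSC was 0.453% to 2.83% of that in AML cells, and at most 0.0389% in MSC alone. Xist, from the inactive X chromosome, without Y-linked Ddx3y marked WT_MSC replicate 1, KO_MSC replicate 3 and all KO_MSC_AML libraries. KO_MSC replicate 1 had both transcripts, and the other MSC libraries, including all WT_MSC_AML, had Ddx3y. All AML libraries had Xist, at 149 to 219 CPM, with Ddx3y at 0.935 CPM at most.

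Promoters are shown for members on which the comparisons turn, to let the ISRE letters be seen beside the values. Of the 42 members, 32 matched a promoter in a RefSeq table (GRCm38.p6), which holds the 250 bases before and 50 bases after each start. The ISRE core, a GAAA and another GAAA with any 2 bases between, was searched on both strands and is in capitals where it was found, with TTTC for GAAA where it lies on the other strand. Isg15 (chr4:156200769-156201068, minus strand) encodes a ubiquitin-like modifier, and 3 overlapping matches in its promoter begin 78, 72 and 66 bases before the start.
Isg15: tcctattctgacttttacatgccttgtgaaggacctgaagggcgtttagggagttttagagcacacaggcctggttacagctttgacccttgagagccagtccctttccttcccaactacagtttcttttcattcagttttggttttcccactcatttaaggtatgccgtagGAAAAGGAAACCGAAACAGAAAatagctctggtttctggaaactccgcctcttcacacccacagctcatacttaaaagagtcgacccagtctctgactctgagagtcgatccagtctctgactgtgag
Gbp2 (chr3:142620413-142620712, plus strand) encodes an interferon-inducible guanylate-binding GTPase, and its match begins 59 bases before the start.
Gbp2: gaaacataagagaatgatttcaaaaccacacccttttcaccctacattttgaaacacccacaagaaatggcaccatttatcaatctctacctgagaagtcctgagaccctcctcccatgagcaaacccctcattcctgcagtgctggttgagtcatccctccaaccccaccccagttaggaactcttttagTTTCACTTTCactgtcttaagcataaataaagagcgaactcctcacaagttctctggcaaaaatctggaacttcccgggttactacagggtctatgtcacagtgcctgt
Slfn5 (chr11:82951852-82952151, plus strand), of the Schlafen family, has a match that begins 155 bases before the start.
Slfn5: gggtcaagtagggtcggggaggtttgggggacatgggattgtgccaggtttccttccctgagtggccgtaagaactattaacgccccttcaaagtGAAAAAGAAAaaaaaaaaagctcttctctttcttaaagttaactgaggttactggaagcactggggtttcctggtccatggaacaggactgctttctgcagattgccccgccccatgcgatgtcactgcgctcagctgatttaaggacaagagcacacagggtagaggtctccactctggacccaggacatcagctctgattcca
Trim25 (chr11:88999153-88999452, plus strand) encodes a ubiquitin ligase that acts with the RNA sensor RIG-I, and these letters are not in the window.
Trim25: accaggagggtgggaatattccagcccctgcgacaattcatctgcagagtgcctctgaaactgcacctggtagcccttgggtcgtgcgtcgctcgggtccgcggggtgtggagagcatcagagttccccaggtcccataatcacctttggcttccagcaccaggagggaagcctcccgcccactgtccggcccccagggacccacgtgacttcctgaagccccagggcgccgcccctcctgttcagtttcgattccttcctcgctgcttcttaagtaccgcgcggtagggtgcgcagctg
Oas1a (chr5:120907476-120907775, minus strand) encodes an oligoadenylate synthetase that activates RNase L, and its 2 overlapping matches begin 20 and 14 bases before the start.
Oas1a: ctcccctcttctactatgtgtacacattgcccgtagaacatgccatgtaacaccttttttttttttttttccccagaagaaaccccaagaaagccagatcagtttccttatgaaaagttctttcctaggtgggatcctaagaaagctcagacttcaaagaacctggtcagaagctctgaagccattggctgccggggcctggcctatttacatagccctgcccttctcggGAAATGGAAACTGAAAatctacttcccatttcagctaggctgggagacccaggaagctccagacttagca
Ifit3 (chr19:34583279-34583578, plus strand) and Ifit3b (chr19:34607707-34608006, plus strand) are neighbouring near-identical copies whose windows share a run of 169 bases, with 2 matches each.
Ifit3: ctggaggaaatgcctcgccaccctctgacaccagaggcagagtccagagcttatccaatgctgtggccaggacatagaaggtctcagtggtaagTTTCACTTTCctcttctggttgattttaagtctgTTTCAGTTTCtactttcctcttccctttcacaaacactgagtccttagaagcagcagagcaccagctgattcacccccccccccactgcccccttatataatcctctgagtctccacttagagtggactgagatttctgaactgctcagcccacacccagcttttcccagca
Ifit3b: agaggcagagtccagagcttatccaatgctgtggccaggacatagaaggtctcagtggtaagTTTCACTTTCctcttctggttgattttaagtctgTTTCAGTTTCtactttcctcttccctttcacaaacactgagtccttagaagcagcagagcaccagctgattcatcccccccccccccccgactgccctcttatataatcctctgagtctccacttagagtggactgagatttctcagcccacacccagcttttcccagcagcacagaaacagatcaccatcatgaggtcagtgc
The ISRE core was in the promoter of 18 of the 32 members (56.2%), against 3.99% of the 27025 genes of the table. A longer form, with CT after the core, was in 10 members (31.2%), against 0.303% of genes. The GAS motif TTCNNNGAA was in 8 members (25%), against 9.55% of genes. In Ifitm3 and Bst2 the GAS match overlaps an ISRE match. A match describes these letters and was not tested as a binding site. The core was in 4 of the 6 promoters of members called higher in KO_MSC and in 11 of the 20 of members tested and not called. It was in 7 of the 14 promoters of members called higher in KO_MSC_AML and in 7 of the 12 of members tested and not called.

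The members are spread over many chromosomes, with a few gene clusters (GRCm38.p6). The 4 Ifit members lie on chromosome 19 between 34550550 and 34650009, and the 3 Ifitm members on chromosome 7 between 140954837 and 141010744. Gbp3 and Gbp2 lie close together on chromosome 3, from 142560016 to 142638008. Near-identical copies within these clusters, and within the Oas, Slfn and Trim30 families, can share reads, so the split between their members is uncertain.

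Per length, Ifitm3 and Ifitm2, of the restriction factors that block virus entry at membranes, stood far above all other members in MSC. Their relative Ifitm1 was only at 2.72 CPM per kb of exon in KO_MSC and 0.566 CPM per kb in WT_MSC. Ifitm3 was at 970 CPM per kb of exon in KO_MSC and 719 CPM per kb in WT_MSC, and Ifitm2 was at 866 CPM per kb in KO_MSC and 529 CPM per kb in WT_MSC. Ifi27, which encodes a small mitochondrial and nuclear membrane protein, came next with 64 CPM per kb in KO_MSC and 43.6 CPM per kb in WT_MSC. In AML cells the order was Ifitm2 (246 CPM per kb in KO_AML and 264 in WT_AML), Bst2 (26.7 in KO_AML and 30.0 in WT_AML) and Ifitm3 (23.5 in KO_AML and 27.8 in WT_AML). Bst2 encodes tetherin, which holds budding virus particles at the cell surface.

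Several textbook interferon-induced genes were at or close to 0 in MSC. Mx1, of the dynamin-like GTPase genes, had 3 counts over the 4 KO_MSC libraries and 2 over the 4 WT_MSC libraries. It had 0 counts in KO_MSC_AML, 3 in WT_MSC_AML and 0 in all AML libraries. Rsad2 (viperin) was at 0.787 CPM or below in every library. Mx2, Oas3, Oasl1 and Rsad2 were among the members under the filter on low counts in all 4 MSC comparisons of 2 groups, together with Mx1, Oas1a, Oas2 and Ifi44. In KO_MSC against WT_MSC, Zbp1 (a sensor of Z-form nucleic acids), Usp18 and Cmpk2 were under it as well. These members were not tested in those comparisons. Mx2, a relative of Mx1, was at 0.607, 0.288, 0.314 and 0.357 CPM in KO_MSC, against 0.0519, 0.0869, 0.0598 and 0 CPM in WT_MSC, a difference that rests on a few counts per library.

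**Figure D1:**
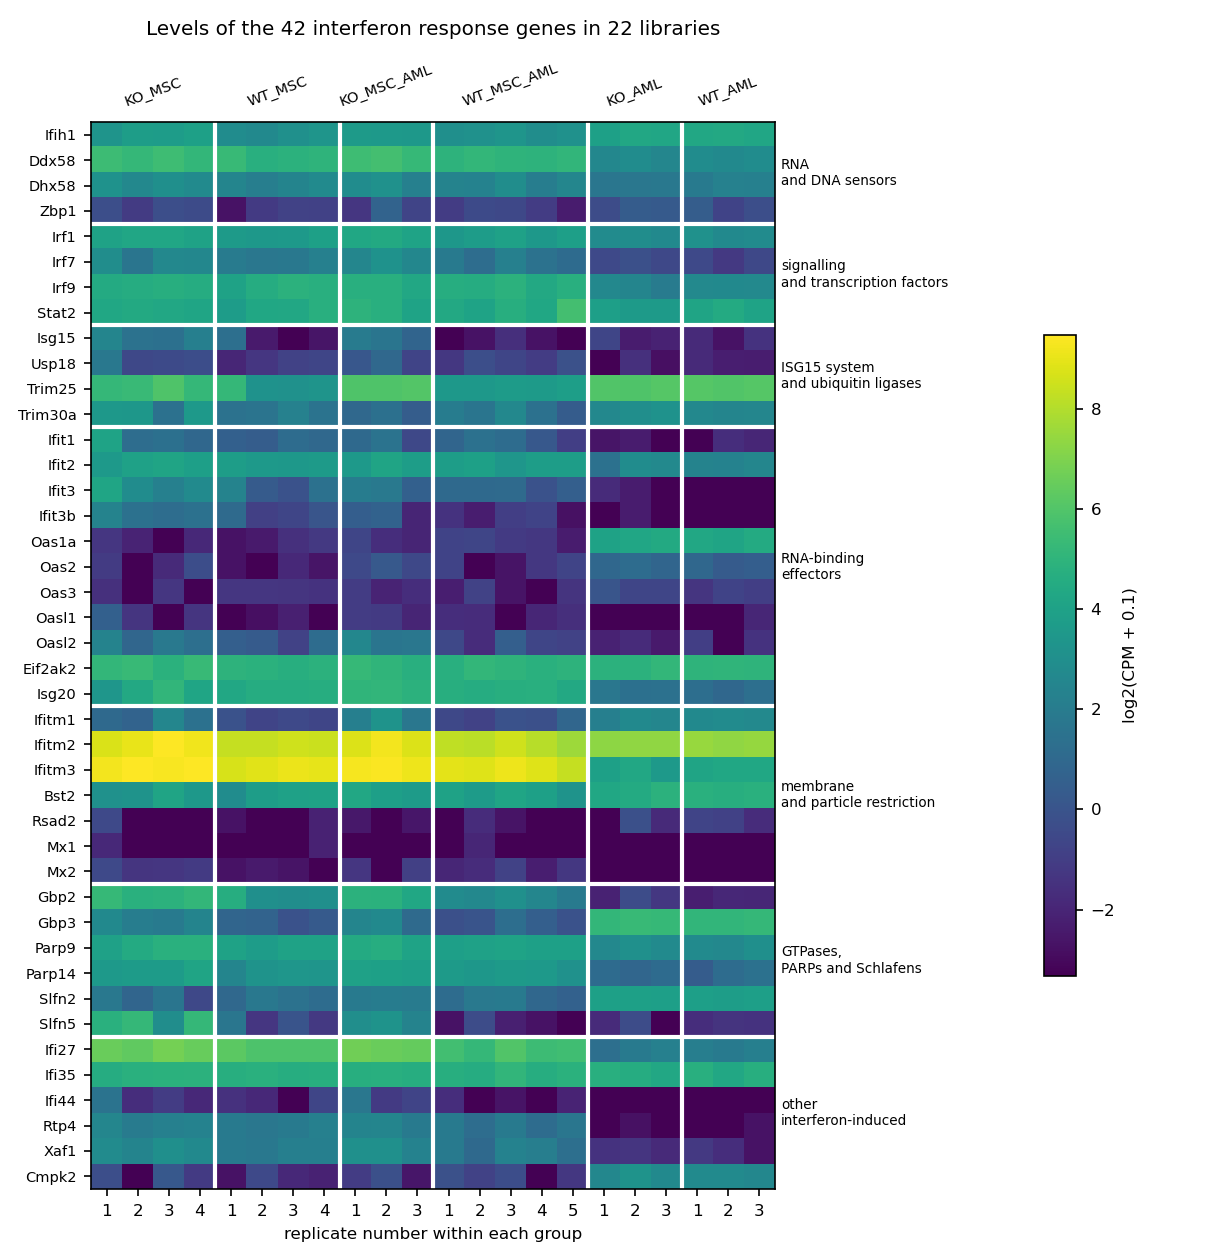
Levels of the 42 members, in rows grouped by role, in the 22 libraries, in columns grouped as labelled, as log2(CPM + 0.1). Ifitm2 and Ifitm3 are the brightest rows in MSC, Mx1 and Rsad2 are dark throughout, and Oas1a is brighter in AML cells than in MSC.

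KO MSC cultured alone had more RNA of 7 members than WT MSC, among them the 3 Ifitm genes, Gbp3 and Slfn5, and no member was lower past the threshold. The filter admitted 31 of the 42 members. Of these 7 rose and 0 fell at an edgeR adjusted p under 0.05, where 5.24% of the 13344 genes tested rose and 6.34% fell. The groups did not overlap, with KO_MSC higher, for 12 of the 31 members, and for 9.34% of all genes. The median log2 fold change of the 31 members was 0.61, against 0.01 over all genes. A gene can pass the filter through the group in which it is high, so these values describe the members tested and not all members.

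The largest fold change was that of Slfn5. Slfn5 was at 27.7, 36.2, 7.65 and 37.1 CPM in KO_MSC replicates 1 to 4, against 3.11, 0.304, 0.897 and 0.330 CPM in WT_MSC replicates 1 to 4. Replicate 3 was the low KO_MSC library and replicate 1 the high WT_MSC library, and the groups did not overlap. The log2 fold change was 4.55 (SE 0.83, edgeR adjusted p = 0.0245). Its relative Slfn2, for which the groups overlapped, had a log2 fold change of -0.21 (SE 0.49).

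Gbp3, a guanylate-binding GTPase, was at 6.74, 4.17, 3.57 and 5.35 CPM in KO_MSC, against 1.71, 1.56, 0.837 and 1.12 CPM in WT_MSC. Every KO_MSC library was above every WT_MSC library, with a log2 fold change of 1.92 (SE 0.32, edgeR adjusted p = 0.0187). Gbp2 was at 37.5, 27.7, 30.1 and 35.5 CPM in KO_MSC, against 24.9, 8.22, 7.60 and 8.13 CPM in WT_MSC. WT_MSC replicate 1 stood near the KO_MSC libraries and the other WT_MSC libraries far below, and Gbp2 did not pass (1.44, SE 0.39, adjusted p = 0.0512).

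Of the restriction factors, Ifitm1 was at 1.94, 1.58, 5.77 and 2.61 CPM in KO_MSC, against 0.830, 0.522, 0.598 and 0.529 CPM in WT_MSC (2.27 on the log2 scale, SE 0.47, edgeR adjusted p = 0.0300). Ifitm2 was at 438, 529, 713 and 589 CPM in KO_MSC, against 331, 322, 378 and 354 CPM in WT_MSC (0.73, SE 0.16, adjusted p = 0.0311). Ifitm3 was at 601, 691, 649 and 691 CPM in KO_MSC, against 418, 476, 543 and 513 CPM in WT_MSC (0.45, SE 0.12, adjusted p = 0.0451). For all 3 Ifitm genes the groups did not overlap, and KO_MSC replicate 3 was highest for Ifitm1 and Ifitm2. Of the remaining members past the threshold, Ifi27 had a log2 fold change of 0.57 (SE 0.13, adjusted p = 0.0330) and Xaf1, an antagonist of apoptosis inhibitors, one of 0.80 (SE 0.20, adjusted p = 0.0408).

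No sensor, transcription factor, RNA-binding effector or member of the ISG15 system passed in MSC cultured alone. The RNA sensor gene Ifih1, which encodes MDA5, just missed the threshold (log2 fold change 0.70, adjusted p = 0.0504), as did the transcription factor gene Irf1 (0.49, adjusted p = 0.0519). Irf9 and Stat2, partners in the ISRE-binding complex, had log2 fold changes of 0.00 (SE 0.17) and 0.01 (SE 0.19). Trim25 was at 36.4, 41.2, 60.8 and 36.1 CPM in KO_MSC, against 37.0, 9.17, 8.79 and 9.78 CPM in WT_MSC. Isg15 was at 5.65, 2.73, 2.57 and 4.46 CPM in KO_MSC, against 2.44, 0.0869, 0 and 0.0661 CPM in WT_MSC. For both genes WT_MSC replicate 1 had a level like that of KO_MSC and the other 3 WT_MSC libraries lay far below (log2 fold changes 1.45, SE 0.50, and 2.56, SE 1.15; adjusted p = 0.0878 and 0.158).

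A further set of genes was high in KO_MSC replicate 1. Ifit1, which binds foreign 5′ RNA ends, was at 16.9 CPM in that library, at 1.84 to 2.51 CPM in the other 3 KO_MSC libraries and at 1.26 to 2.21 CPM in WT_MSC. Ifit3 was at 18.1, 7.48, 4.70 and 6.77 CPM in KO_MSC, against 5.24, 1.17, 0.837 and 2.64 CPM in WT_MSC. Usp18, which removes ISG15 and dampens the receptor, was at 3.40 CPM in KO_MSC replicate 1 and at 0.713 CPM or below in all other libraries of both groups. Trim30a, a regulator of inflammatory signalling in mouse, was low in KO_MSC replicate 3, with 11.1, 10.9, 2.63 and 11.7 CPM in KO_MSC, against 2.70, 2.91, 4.85 and 2.84 CPM in WT_MSC.

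The count of 7 changed when 1 library was left out. Omitting WT_MSC replicate 1 gave 18 members, where 46.0% of all genes were called in either direction. The count was 0 without any one of WT_MSC replicates 2, 3 and 4 or KO_MSC replicates 2 and 4. In those fits only 0.41% to 0.90% of all genes were called. Libraries with Ddx3y and without Xist were KO_MSC replicates 2 and 4 and WT_MSC replicates 2, 3 and 4. Among these alone 20 members rose and 3 fell (Isg20, Bst2 and Slfn2), where 60.04% of all genes were called in either direction. The chi-square of count differences per degree of freedom was 4.26 to 7.95 between these WT_MSC libraries. It was 6.59 between these KO_MSC libraries. WT_MSC replicate 1 gave 183 to 229 against the other WT_MSC libraries, and KO_MSC pairs with replicate 1 or 3 gave 53.6 to 114. The p-values of this fit measure only the spread within these closer sets. Summed over 6 markers, proliferation transcripts were at 26.9 to 44.4 CPM in KO_MSC, against 46.0 CPM in WT_MSC replicate 1 and 372 to 472 CPM in the other 3 WT_MSC libraries. WT_MSC replicate 1 was near KO_MSC in these transcripts, and also for Trim25, Isg15 and Gbp2. For Slfn5, Gbp3 and the Ifitm genes it was below every KO_MSC library. Within WT_MSC it was the highest library for 13 of 35 members and the lowest for 11. The 5 endothelial markers summed to 7.65 to 22.5 CPM in KO_MSC and 0.727 to 5.86 CPM in WT_MSC. Most of the KO_MSC sum was Tek, at 111, 163, 352 and 172 counts, against 92, 1, 8 and 2 counts in WT_MSC. Pecam1, Cdh5, Kdr and Emcn had at most 14 counts in a KO_MSC library and at most 20 in a WT_MSC library. The part of these marker sets in the differences was not tested. The 7 macrophage markers summed to 3.32 to 4.68 CPM in KO_MSC and 4.55 to 9.75 CPM in WT_MSC, with 1 of 2 tested called lower. Of these C1qa and C1qb were at 0 in both groups, as were the plasmacytoid dendritic cell genes Siglech and Klk1.

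**Figure D2:**
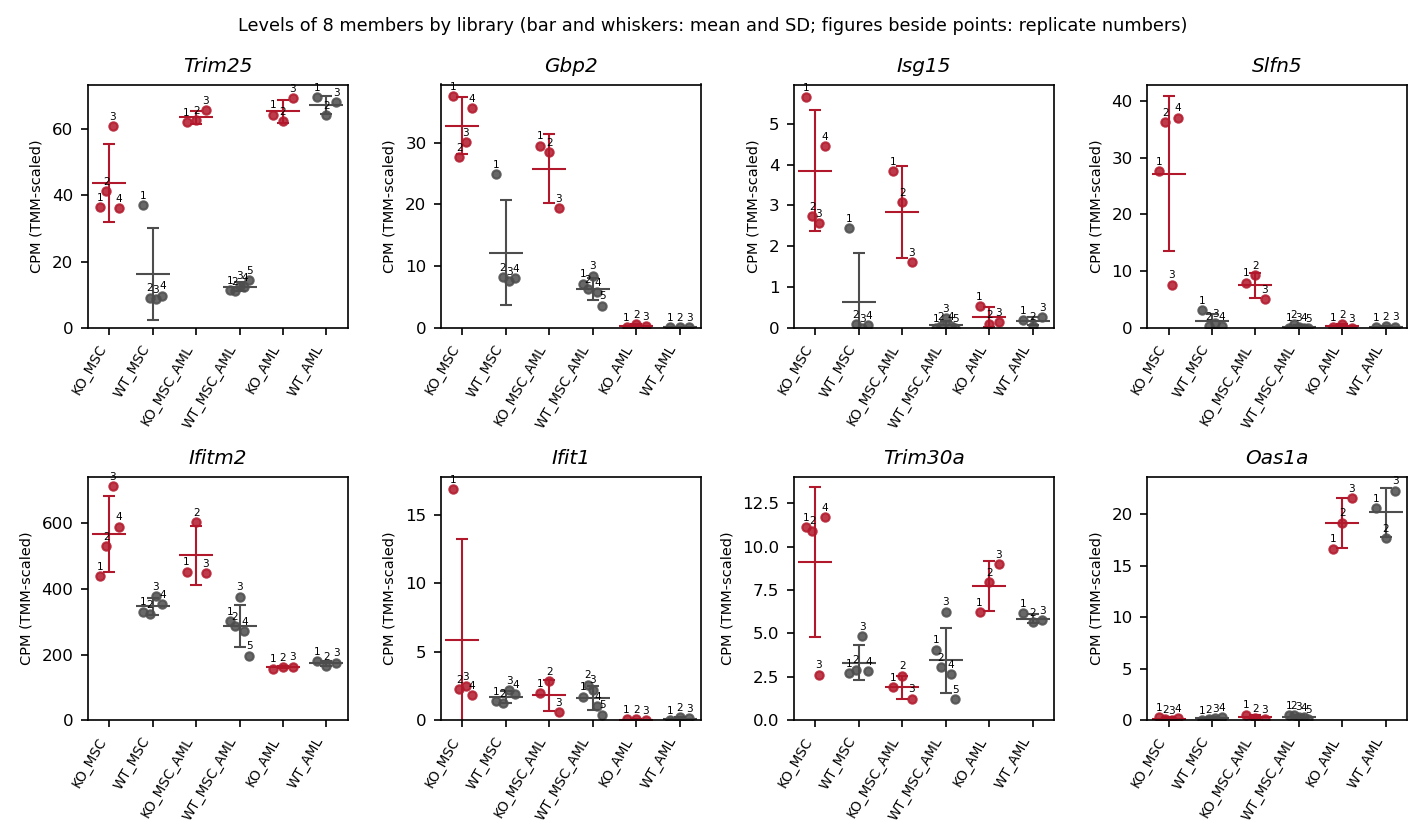
Levels of 8 members in CPM for each library, with group mean and SD, KO groups in red and WT groups in grey. WT_MSC replicate 1 stands with KO_MSC for Trim25 and Gbp2, KO_MSC replicate 1 stands alone for Ifit1, and Oas1a is found at 16.7 to 22.3 CPM in AML cells.

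Co-culture with AML cells moved none of the members tested past the threshold in either genotype. In WT_MSC_AML against WT_MSC 28 members were tested and 0 were called, where 0.744% of the 13439 genes tested were called. The smallest p-values were those of Ifi27 (log2 fold change -0.42, SE 0.16, edgeR adjusted p = 0.209), Gbp2 (-0.97, SE 0.39, adjusted p = 0.234) and Oasl2 (-1.04, SE 0.55, adjusted p = 0.325). DESeq2 also called 0 members there. Isg15 and Slfn5 were under the filter on low counts in this comparison, so edgeR did not test them. The median log2 fold change was 0.01 for the members tested and -0.0037 for all genes.

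In KO_MSC_AML against KO_MSC 34 members were tested and 0 were called, where 0.743% of the 13452 genes tested were called. Trim30a was at 1.92, 2.57 and 1.25 CPM in KO_MSC_AML, and KO_MSC replicate 3 (2.63 CPM) lay near these while the other KO_MSC libraries lay above 10.8 CPM (log2 fold change -2.25, SE 0.54, edgeR adjusted p = 0.0740). Slfn5 was at 7.99, 9.36 and 5.15 CPM in KO_MSC_AML, again near KO_MSC replicate 3 (-1.87, SE 0.54, adjusted p = 0.0986). Ifit3 was at 4.07, 3.50 and 1.40 CPM in KO_MSC_AML (-1.64, SE 0.55, adjusted p = 0.128). Without KO_MSC replicate 3, Trim30a and Slfn5 fell and Trim25 rose past the threshold, where 9.93% of all genes were called. DESeq2 called Trim30a, Ifit3 and Slfn5 lower, where it called 9.37% of all genes. KO_MSC replicate 3 and the 3 KO_MSC_AML libraries share the pattern of Xist without Ddx3y, and no other KO_MSC library has it. KO_MSC replicate 1, with Xist at 179 CPM beside Ddx3y, was among the libraries with Trim30a above 10.8 CPM. The part of this pattern in these levels was not tested.

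After co-culture, KO MSC had more RNA of 17 members than WT MSC, and again no member was lower past the threshold. The filter admitted 33 members. Of these 17 rose and 0 fell, where 16.9% of the 13710 genes tested rose and 14.5% fell. The groups did not overlap, with KO_MSC_AML higher, for 16 members and for 17.6% of all genes. The median log2 fold change was 0.58, against -0.01 over all genes. Here too a gene can pass the filter through the group in which it is high. Isg15 and Slfn5, which were close to 0 in WT_MSC_AML, are such genes and could be called only higher. The counts and the median therefore describe the members tested and not all members. All KO_MSC_AML libraries had Xist and all WT_MSC_AML libraries had Ddx3y, so genotype and these transcripts cannot be told apart here.

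Trim25 gave the smallest p-value of the members. Trim25 was at 62.1, 62.7 and 65.7 CPM in KO_MSC_AML, against 11.4, 11.2, 12.8, 12.3 and 14.4 CPM in WT_MSC_AML. The groups were far apart and tight, with a log2 fold change of 2.37 (SE 0.11, edgeR adjusted p = 2.35e-07). The level in KO_MSC_AML was like that of AML cells (62.2 to 69.5 CPM). The AML marker sum of these MSC libraries was 0.453% to 1.95% of the AML level, and the part of AML cells in the Trim25 level was not tested.

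Isg15 and Slfn5 were close to 0 in WT_MSC_AML. Isg15 was at 3.84, 3.07 and 1.62 CPM in KO_MSC_AML, against 0, 0.0531, 0.236, 0.0546 and 0 CPM in WT_MSC_AML. The ratio of summed counts was 44.3 (exact 95% interval 19.8 to 123, counting error only, 115 against 6 counts), and the log2 fold change was 5.32 (SE 0.72, edgeR adjusted p = 0.000417). For Slfn5 the WT_MSC_AML libraries were at 0.0542, 0.691, 0.118, 0.0546 and 0 CPM (5.33, SE 0.71, adjusted p = 0.000448), which is below every KO_MSC_AML library.

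Gbp2 was at 29.5, 28.5 and 19.4 CPM in KO_MSC_AML, against 7.20, 6.27, 8.5, 5.84 and 3.64 CPM in WT_MSC_AML (2.06 on the log2 scale, SE 0.24, edgeR adjusted p = 0.000177). Ifi27 was at 103, 93.7 and 88.4 CPM in KO_MSC_AML, against 48.7, 36.5, 64.5, 44.2 and 46.7 CPM in WT_MSC_AML (1.00, SE 0.16, adjusted p = 0.000944). Neither gene's groups overlapped. Ifitm1 was at 4.53, 9.36 and 3.31 CPM in KO_MSC_AML, against 0.596, 0.478, 0.826, 0.764 and 1.77 CPM in WT_MSC_AML (2.70, SE 0.46, adjusted p = 0.00166). Oasl2, an oligoadenylate synthetase-like gene, was at 6.07, 3.00 and 3.31 CPM in KO_MSC_AML, against 0.596, 0.213, 1.36, 0.546 and 0.467 CPM in WT_MSC_AML (2.72, SE 0.49, adjusted p = 0.00222). Both were again higher in every KO_MSC_AML library. Ifitm2 had a log2 fold change of 0.83 (SE 0.19, adjusted p = 0.00768).

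The other members that rose were the RNA sensor genes Ifih1 and Ddx58 (RIG-I), the transcription factor genes Irf1 and Irf7, the exonuclease gene Isg20, Gbp3, the ADP-ribosyltransferase family genes Parp9 and Parp14, and Xaf1, with log2 fold changes of 0.39 to 1.95. Not past the threshold were Ifitm3 (0.45, edgeR adjusted p = 0.0594), Rtp4, a receptor transporter gene (0.73, adjusted p = 0.0640), Ifit1 (0.20, SE 0.61), Ifit2 (0.11, SE 0.18), Irf9 (0.01, SE 0.15) and Stat2 (-0.08, SE 0.36). Stat2 was at 50.5 CPM in WT_MSC_AML replicate 5 and at 17.3 to 25.7 CPM in the other WT_MSC_AML libraries. Trim30a had the lowest fold change of the 33 members (-0.83, SE 0.49, adjusted p = 0.223).

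The count of 17 became 10 without KO_MSC_AML replicate 1 and 9 without replicate 2, where 21.15% and 24.62% of all genes were called. Trim25, Gbp2, Isg15, Slfn5, Ifi27 and Ifitm1 passed in all 13 alternative fits of this comparison. KO_MSC_AML replicate 2 had the highest level in its group for 24 of 35 members and replicate 3 the lowest for 29. Summed proliferation markers were at 104 to 202 CPM in KO_MSC_AML and 282.5 to 581 CPM in WT_MSC_AML, and summed AML markers at 56.7 to 245 CPM in KO_MSC_AML and 97.8 to 354 CPM in WT_MSC_AML. The 5 endothelial markers summed to 6.69 to 18.9 CPM in KO_MSC_AML and 1.49 to 4.46 CPM in WT_MSC_AML, with 1 of 3 tested called higher. The median log2 fold change of these 3 was -0.98. Tek had 77, 238 and 77 counts in KO_MSC_AML, against 3, 0, 3, 3 and 0 in WT_MSC_AML. Pecam1 had 12, 23 and 6 counts in KO_MSC_AML, against 31, 74, 32, 36 and 14 in WT_MSC_AML. The 9 stromal markers summed to 33790 to 34640 CPM in KO_MSC_AML and 27790 to 30230 CPM in WT_MSC_AML, with 4 of 8 tested called higher. Their part in the differences was not tested. The 7 macrophage markers summed to 3.75 to 5.38 CPM in KO_MSC_AML and 2.66 to 6.31 CPM in WT_MSC_AML, with 0 of 2 tested called. Of these C1qa, C1qb and C1qc were at 0 in both groups, as were the plasmacytoid dendritic cell genes Siglech and Klk1.

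**Figure D3:**
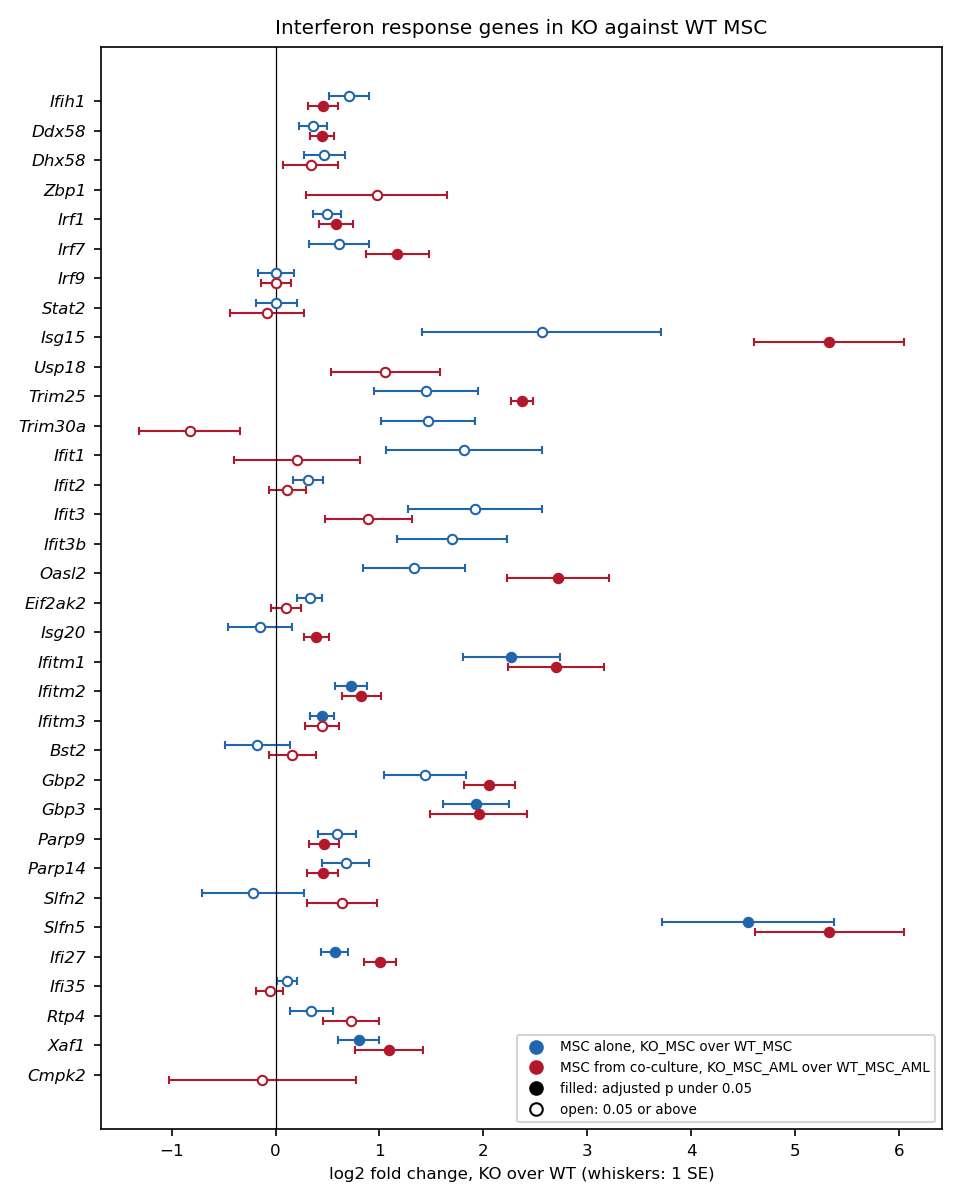
Log2 fold change with 1 SE of each member tested, KO over WT, in MSC alone (blue) and in MSC from co-culture (red), filled where the edgeR adjusted p was under 0.05. Slfn5 is farthest right among the filled points in both comparisons, and no filled point lies left of 0.

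The KO against WT comparisons in MSC alone and in co-cultured MSC share no libraries. Ifitm1, Ifitm2, Gbp3, Slfn5, Ifi27 and Xaf1 rose in both, which is 6 of 7 (85.7%) and 6 of 17 (35.3%). Over all genes 389 rose in both, 55.7% of those higher in KO_MSC and 16.8% of those higher in KO_MSC_AML. Whether the genotype difference changed with co-culture was tested as an interaction over the 16 MSC libraries. Of 35 members tested 0 were called, as were 0 of all 14247 genes (0%). The smallest p-value of the members was that of Trim30a (log2 difference of the co-culture effect, KO minus WT, -2.30, SE 0.70, edgeR adjusted p = 0.529). Next were Ifi27 (0.42, SE 0.21, adjusted p = 0.673) and Oasl2 (1.37, SE 0.73, adjusted p = 0.683). DESeq2 called 0 members in this fit too.

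AML cells carried a different selection of these genes than the MSC beside them, with Oas1a, Gbp3, Cmpk2 and Slfn2 higher and Ifitm3, Ifi27, Isg20, Gbp2 and Rtp4 lower. In KO_AML against KO_MSC_AML 9 of 34 members tested were higher and 20 lower, where 38.8% and 41.1% of all 13620 genes were called in these directions. In WT_AML against WT_MSC_AML 9 of 32 were higher and 16 lower, where 39.1% and 42.9% of all 14133 genes were called. The 2 cell types thus differed in most genes, and the members' counts are read against that. A gene can pass the filter through the cell type in which it is high, so these counts describe only the members tested. The comparisons share no libraries, and 7 members were higher in both (7 of 9 in each, 77.8%) and 15 lower in both (15 of 20 in the KO pair, 75.0%, and 15 of 16 in the WT pair, 93.8%). Of all genes called higher, 89.1% of the KO pair's and 85.3% of the WT pair's were higher in both, and of those called lower 89.3% and 82.3% were lower in both. A sum over a sorted population cannot tell fewer cells with a transcript from less transcript per cell.

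Oas1a was at 16.7, 19.2 and 21.6 CPM in KO_AML, against 0.538, 0.214 and 0.147 CPM in KO_MSC_AML (log2 fold change 6.00, SE 0.37, edgeR adjusted p = 3.52e-06). It was at 20.6, 17.7 and 22.3 CPM in WT_AML, against 0.0934 to 0.531 CPM in WT_MSC_AML (median 0.354 CPM, 5.82 on the log2 scale, SE 0.28, adjusted p = 2.89e-09). MSC cultured alone had Oas1a at 0 to 0.330 CPM. In co-cultured MSC this low level stands beside AML markers at 0.453% to 2.83% of their sum in AML cells, and their part in it was not tested. Its relatives Oasl1 and Oasl2 were nearly absent from AML cells, at 0.158 and 0.411 CPM at most.

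Ifitm3 was at 15.6, 20.4 and 11.8 CPM in KO_AML, against 624, 676 and 579 CPM in KO_MSC_AML (log2 fold change -5.27, SE 0.24, edgeR adjusted p = 1.03e-06). It was at 18.0, 19.3 and 19.3 CPM in WT_AML, against 326 to 575 CPM in WT_MSC_AML (-4.62, SE 0.19, adjusted p = 6.57e-10). Its neighbour Ifitm2 had log2 fold changes of -1.62 (SE 0.16) in the KO pair and -0.72 (SE 0.17) in the WT pair. Ifitm1 was higher in WT_AML than in WT_MSC_AML (2.88, SE 0.35, adjusted p = 1.04e-05), and its log2 fold change in the KO pair was -0.0017 (SE 0.40).

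Of the other members past the threshold in both pairs, Isg20 had log2 fold changes of -3.50 (SE 0.17) in the KO pair and -3.48 (SE 0.16) in the WT pair. Ddx58 had -2.77 (SE 0.17) in the KO pair and -2.19 (SE 0.11) in the WT pair, and Ifi27 had -4.66 (SE 0.22) in the KO pair and -3.51 (SE 0.20) in the WT pair. Irf9 had -1.96 (SE 0.14) in the WT pair, and Parp14 (-2.89, SE 0.20) and Slfn2 (1.99, SE 0.17) were among those with the smallest p-values in the KO pair. Gbp2 had -5.97 (SE 0.42) in the KO pair and -5.40 (SE 0.43) in the WT pair, opposite in sign to its relative Gbp3 with 3.00 (SE 0.37) in the KO pair and 4.83 (SE 0.26) in the WT pair. Trim25 was higher in WT_AML than in WT_MSC_AML (2.44, SE 0.10, edgeR adjusted p = 8.29e-10), while its log2 fold change in the KO pair was 0.06 (SE 0.09). Whether the pairs differ in these fold changes was not tested directly. Of these groups only WT_MSC_AML had Ddx3y, and the others had Xist without it. A difference between the pairs therefore cannot be told apart from these transcripts.

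Ifit3 had 5 counts over KO_AML and 121 over KO_MSC_AML, and 0 counts over WT_AML against 152 over WT_MSC_AML, so it was at least 34.3-fold lower in WT_AML with a floor of 3 counts over the group. Rtp4 had 1 count in each AML group, against 200 counts in KO_MSC_AML and 283 in WT_MSC_AML. Cmpk2, a mitochondrial nucleotide kinase gene next to Rsad2, was higher in AML cells, with log2 fold changes of 4.15 (SE 0.56) in the KO pair and 3.83 (SE 0.49) in the WT pair. Eif2ak2, which encodes the RNA-activated kinase PKR, was between 26.1 and 40.0 CPM in every library and passed in neither pair. Ifi35, an NMI partner protein gene, was at 13.8 to 16.1 CPM per kb in all 6 groups.

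**Figure D4:**
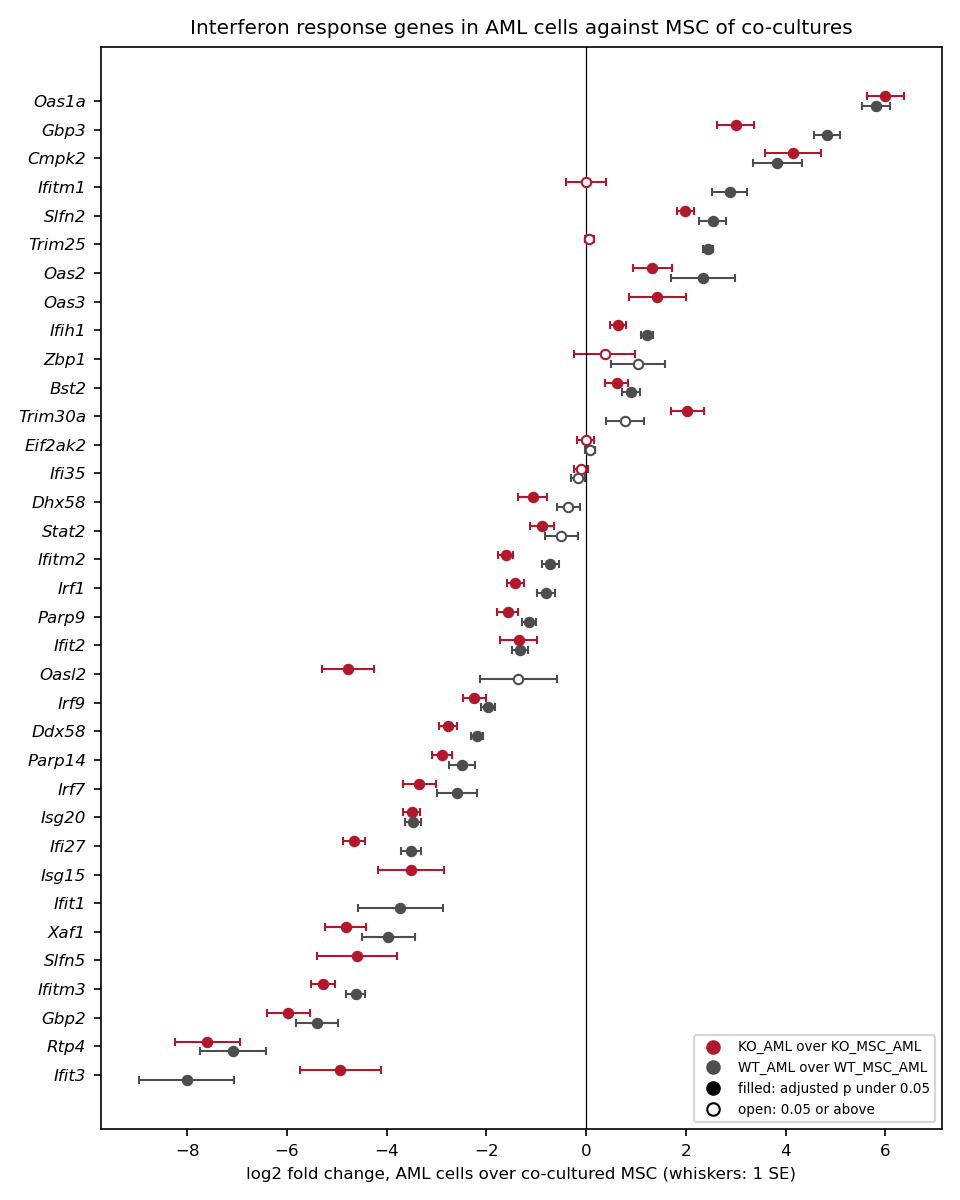
Log2 fold change with 1 SE of each member tested, AML cells over MSC of the same kind of co-culture, for the KO pair (red) and the WT pair (grey), filled where the edgeR adjusted p was under 0.05. Oas1a has 6.00 in the KO pair and 5.82 in the WT pair, and Trim25 and Ifitm1 have open points near 0 in the KO pair.

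In AML cells the genotype of the MSC made no difference that passed the threshold for any member. In KO_AML against WT_AML 27 members were tested and 0 were called, where 0.0482% of the 12444 genes tested were called. Stat2 was at 15.0, 12.3 and 12.5 CPM in KO_AML, against 17.7, 22.5 and 16.8 CPM in WT_AML, and the groups did not overlap (log2 fold change -0.50, SE 0.14, edgeR adjusted p = 0.641). Trim30a had a log2 fold change of 0.42 (SE 0.17, adjusted p = 0.867) and the sensor gene Dhx58 (LGP2) one of -0.39 (SE 0.24, adjusted p = 0.910). DESeq2 called 0 members.

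The genes of the pathway outside the 42 members were followed from lists. No type I interferon transcript was detected in MSC. Ifnb1 and the 13 Ifna genes in the table had 0 counts in every library, Ifnab had 2 counts over KO_AML, and Ifnk, a keratinocyte interferon, had 7 counts over WT_AML. Ifng had 1 count, in KO_MSC. Ifne, Ifnl2 and Ifnl3 were at 0 in every library, and Ifnlr1, a chain of the lambda interferon receptor, had 5 to 29 counts per group. Interferon protein was not measured.

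The receptor genes were expressed in all groups. Ifnar2 averaged 75.5 ± 7.53 CPM in KO_MSC and 50.1 ± 7.64 CPM in WT_MSC (SD, 0.61 on the log2 scale, SE 0.12, edgeR adjusted p = 0.0298), and 57.2 ± 5.31 CPM in KO_MSC_AML and 40.1 ± 3.88 CPM in WT_MSC_AML (0.53, SE 0.11, adjusted p = 0.00528). Ifnar1 averaged 81.3 ± 4.01 CPM in KO_MSC and 67.8 ± 3.56 CPM in WT_MSC (0.28, SE 0.07, adjusted p = 0.0473). After co-culture it averaged 76.7 ± 2.29 CPM in KO_MSC_AML and 67.3 ± 2.89 CPM in WT_MSC_AML and did not pass (0.21, SE 0.08, adjusted p = 0.0806). Of the interferon gamma receptor genes, Ifngr2 was higher in KO_MSC_AML (0.77, SE 0.11, adjusted p = 0.000676), and Ifngr1 passed in neither genotype comparison (0.11, SE 0.16, in MSC alone and -0.18, SE 0.14, after co-culture). Il10rb, the other chain of the lambda interferon receptor, did not pass either.

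The counts of the lists are read against the shares of all genes, 5.24% higher and 6.34% lower in KO_MSC against WT_MSC, and 16.9% higher and 14.5% lower in KO_MSC_AML against WT_MSC_AML. Of 8 genes of JAK-STAT signalling and its feedback, 1 rose and 0 fell in KO_MSC (Socs3, a feedback inhibitor, log2 fold change 0.84, edgeR adjusted p = 0.0354). In KO_MSC_AML 2 rose and 1 fell against WT_MSC_AML, namely the receptor kinase gene Jak1 (0.71, adjusted p = 0.00214), the feedback inhibitor gene Socs1 (1.06, adjusted p = 0.0266) and the phosphatase gene Ptpn2 (-1.05, adjusted p = 0.000185). Of the genes of sensing and interferon induction, 15 were tested in each comparison. In KO_MSC Trex1 (0.43) and Tlr3 (0.60) rose and Irf5 (-2.07) fell. In KO_MSC_AML the RNA-editing gene Adar (0.53) rose, and Sting1 (-0.96, adjusted p = 4.31e-05), Samhd1 (-1.15, adjusted p = 0.000119) and Cgas (-1.03, adjusted p = 0.0482) fell. Sting1 and Cgas encode the adaptor and the sensor of the cytosolic DNA pathway, and Samhd1 a dNTP hydrolase that limits retroviruses.

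Of 10 tested genes that lean to interferon gamma, 5 rose and 0 fell in KO_MSC. Gbp5 (log2 fold change 3.78, edgeR adjusted p = 0.0300), the immunity-related GTPase gene Irgm2 (1.13, adjusted p = 0.0300) and Gbp7 (1.12, adjusted p = 0.0330) had the smallest adjusted p, and the immunoproteasome genes Psmb8 (1.12) and Psmb9 (1.16) followed. In KO_MSC_AML against WT_MSC_AML 4 of 9 rose and 0 fell, led by Ifi47 (3.55, adjusted p = 0.000185), Gbp7 (1.27, adjusted p = 0.00550) and Iigp1 (2.25, adjusted p = 0.00683). Of the other interferon-stimulated genes, 5 of 33 rose and 1 fell in KO_MSC, and 9 of 34 rose and 2 fell in KO_MSC_AML. Lgals3bp (1.36 in KO_MSC and 1.39 in KO_MSC_AML), Sp100 (2.41 in KO_MSC and 2.05 in KO_MSC_AML) and Ifi203 (1.60 in KO_MSC and 2.16 in KO_MSC_AML) rose in both, and Slfn9 fell in both (-2.04 in KO_MSC and -1.93 in KO_MSC_AML). Slfn3 rose in KO_MSC_AML (4.21, SE 0.57). In KO_AML against WT_AML none of these lists had a call past the threshold.

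The authors' deposited table gives fold changes and adjusted p-values for the comparisons of KO_MSC with WT_MSC, of co-cultured with lone MSC in each genotype, and of KO_AML with WT_AML. For KO_MSC against WT_MSC the authors' deposited table has 23 members higher and 0 lower at an adjusted p under 0.05, where 26.9% of all genes with such a value are called in either direction. In WT_MSC_AML against WT_MSC it has 0 higher and 2 lower (9.60% of all genes), namely Isg15 (log2 fold change -3.33) and Gbp2 (-0.99). In KO_MSC_AML against KO_MSC it has 0 higher and 1 lower (15.9%), Trim30a (-2.25), and in KO_AML against WT_AML 0 (0.287%).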

How the data were processed

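RNA of 22 libraries was amplified with SMART-Seq v4 and made into Nextera XT libraries read at 75 bp, per the labels' protocols. Per the submitters' processing notes, FastQC 0.11.8, MultiQC 1.7, the aligner STAR 2.6.1d, featureCounts and the mouse build GRCm38 were used. The file header names a human build beside the mouse species, and neither annotation version nor strand setting is given in the sources used here. Reads of overlapping and antisense genes therefore cannot be told apart. The deposited table holds raw counts per gene from the authors for 22 libraries. It also holds 22 per-sample columns of normalized values that were not used. The deposited log2 fold changes and p-values come from the authors' DESeq2 Wald test, per the file headers, and are quoted only as the authors' own.

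Rows without a symbol (1275, with 0.501% to 0.825% of counts per library) were left out. Genes were filtered with filterByExpr, scaled with TMM and tested with edgeR's robust quasi-likelihood F-test (edgeR 4.0.16, R 4.3.3), with Benjamini-Hochberg adjustment over all genes tested and a threshold of 0.05. Each comparison used only its own groups, and the interaction all 16 MSC libraries. The fits were tested on simulated data. Alternatives were DESeq2 1.42.0, RLE scaling, no filter, 1 fit of all libraries, a replicate block, leaving out each library and fits within sex-linked transcript classes. Leaving out both first MSC libraries, and the within-class fits of the co-culture comparisons, were chosen after seeing the data. Levels are CPM with TMM factors over all 22 libraries, and levels per kb use the exon length of GENCODE release M21. Intervals and floors cover counting error only.

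The members and lists were chosen with earlier results of these data known. Named were members past the threshold, up to 8 a comparison ranked by adjusted p (where under 3 passed, the 3 lowest by unadjusted p), the members of highest level, and up to 3 genes a list. Of the other members shown, Trim25, Gbp2, Isg15, Ifit1, Ifit3, Usp18, Trim30a and Eif2ak2 were picked in some comparisons after their values were seen.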

Additional observations from a re-analysis of the deposited data

Results flagged for a closer look

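In 14 of 105 checks of a member within a group of 4 or 5 libraries, 1 library stood apart from the rest by Dixon's criterion, which chance alone meets in about 1 of 20 groups. That rate assumes independent, normally distributed values. The checks reuse the same libraries, and some rest on a few counts. The share over all genes was not taken, so the count is not read as an excess in the members. In KO_MSC, replicate 1 stood high for Usp18 (3.40 CPM, next 0.713 CPM), Ifit1 (16.9 CPM, next 2.51 CPM) and Ifit3b (5.10 CPM, next 2.66 CPM), and replicate 3 stood low for Trim30a (2.63 CPM, next 10.9 CPM). In WT_MSC, replicate 1 stood high for Isg15 (2.44 CPM, next 0.0869 CPM), Trim25 (37.0 CPM, next 9.78 CPM), Gbp2 (24.9 CPM, next 8.22 CPM) and Ifi27 (76.7 CPM, next 60.7 CPM). That library stood apart from the other WT_MSC libraries over genes at large as well, with a chi-square per degree of freedom of 183 to 229. WT_MSC replicate 3 stood high for Trim30a (4.85 CPM, next 2.91 CPM) and WT_MSC replicate 2 stood low for Parp9 (13.4 CPM, next 16.2 CPM). In WT_MSC_AML, replicate 5 stood high for Stat2 (50.5 CPM, next 25.7 CPM) and Ifitm1 (1.77 CPM, next 0.826 CPM), replicate 3 for Isg15 (0.236 CPM, next 0.0546 CPM) and replicate 2 for Slfn5 (0.691 CPM, next 0.118 CPM).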

How the results depend on the processing

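No called member changed sign under any alternative run. Over the called members and their alternatives, the call was kept in 55 of 105 checks for KO_MSC against WT_MSC, 178 of 221 for KO_MSC_AML against WT_MSC_AML, 300 of 318 for KO_AML against KO_MSC_AML and 325 of 325 for WT_AML against WT_MSC_AML. In KO_MSC against WT_MSC, Xaf1 kept its call in 5 of 15 alternatives and Ifitm3 in 6 of 15. The members' median log2 fold change kept its sign in these 4 comparisons, at 0.52 to 0.73, 0.44 to 0.73, -1.67 to -1.21 and -0.98 to -0.60. Medians near 0 changed sign in the others, with ranges of -0.15 to 0.04 for WT_MSC_AML against WT_MSC, -0.15 to 0.15 for KO_MSC_AML against KO_MSC, -0.11 to 0.18 for the interaction and -0.07 to 0.01 for KO_AML against WT_AML. The share of all genes called in either direction stands in brackets after each count. In KO_MSC against WT_MSC, 7 members were called as reported (11.58%), 18 by DESeq2 (16.88%) and 17 in the fit of all 22 libraries (23.58%). Without both first libraries 18 were called (48.25%), and among libraries with Ddx3y alone 23 (60.04%). Leaving out 1 library gave 0 to 18 (0.41% to 46.04%). In KO_MSC_AML against KO_MSC, 3 were called by DESeq2 (9.37%) and 1 in the fit of all libraries (10.07%), against 0 (0.743%). Leaving out 1 library gave 0 to 3 there (0% to 9.93%). In KO_MSC_AML against WT_MSC_AML, leaving out 1 library gave 9 to 20 (21.15% to 33.24%), against 17 (31.41%). In KO_AML against WT_AML, 1 member, Stat2, was called without the filter (0.281%), against 0 (0.0482%). The causes were not tested.

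With the replicate number as a block, 2 members were called in KO_MSC against WT_MSC (2.02% of all genes) and 6 in KO_MSC_AML against WT_MSC_AML (8.62%). The block fits kept only replicate numbers present in every compared group. KO_MSC_AML against WT_MSC_AML was thus fitted without WT_MSC_AML replicates 4 and 5, and the effect of the block was not separated from that. In both co-culture comparisons, the interaction and KO_AML against WT_AML 0 members were called, where 0% to 0.78% of all genes were called. The numbers are those of the titles, and 2 of the 3 KO_MSC_AML libraries have another number in their descriptions. By the titles’ numbers no pairing of the samples was found: same-numbered libraries correlated at -0.338 to 0.283, and no comparison had every pair above 0.1.

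Members' median levels, with TMM factors of the compared libraries alone, were 4.70, 3.023, 6.11, 4.17, 4.46, 3.87, 3.26 and 5.11 CPM over the 8 comparisons, in the order KO_MSC against WT_MSC, WT_MSC_AML against WT_MSC, KO_MSC_AML against KO_MSC, KO_MSC_AML against WT_MSC_AML, the interaction, KO_AML against WT_AML, WT_AML against WT_MSC_AML and KO_AML against KO_MSC_AML, against 5.24, 3.23, 6.87, 4.44, 4.87, 3.04, 3.07 and 4.84 CPM. The longer ISRE form was in 10 members, against 18 for the core.

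Members at a few counts per library, such as Mx1, Rsad2, Oasl1 and Ifi44, are limited by depth.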

Other observations

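Across the 16 MSC libraries, after removal of group means, the 435 pairs among 30 members with enough counts had a median Spearman rho of 0.209 on log2(CPM + 0.5), against 0 over the pairs of all 12709 genes. The highest pairs were Isg15 with Gbp2 (0.831), Dhx58 with Rtp4 (0.785), Irf9 with Stat2 (0.782) and the neighbours Ifitm2 and Ifitm3 (0.774). The libraries share depth and preparation, and these values are a description without a test.

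The AML cells carried a small trace of Lama4 that followed the MSC of their co-culture, at 0.0153 ± 0.0264 CPM in KO_AML and 2.54 ± 1.01 CPM in WT_AML (SD, n = 3 each). Stromal markers summed to 93.1 to 291 CPM in KO_AML and 183 to 309 CPM in WT_AML, beside which stand the low AML levels of members that are high in MSC. Their part in those levels was not tested.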
